A study of Rattus norvegicus with 11 samples.

Results

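The 10 genes described here encode enzymes of glycolysis and of lactate formation, and a carrier through which lactate leaves the cell. They were taken by name from the deposited count table, and each name stood on 1 of its 25275 rows. They are the hexokinases Hk1 and Hk2, the glucose-6-phosphate isomerase Gpi, the phosphofructokinase subunits Pfkl, Pfkm and Pfkp, the pyruvate kinase Pkm, the lactate dehydrogenase subunits Ldha and Ldhb, and the monocarboxylate transporter Slc16a1. All 10 had enough counts to be tested.

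Glycolysis turns glucose into pyruvate in the cytosol, with hexokinase, phosphofructokinase and pyruvate kinase as its irreversible steps. In fat cells the pathway supplies glycerol phosphate and acetyl units for triglyceride, and part of the pyruvate is reduced to lactate and exported. Released lactate can act back on fat cells through the receptor Hcar1, which restrains lipolysis.

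The tissue was retroperitoneal white fat from 11 female wild-type Wistar rats, 1 library per rat. In 5 rats an osmotic pump delivered follicle-stimulating hormone (FSH) at 6 µg per kg per day on top of degarelix, and in the other 6 rats the pump held vehicle on top of degarelix. Every animal of both groups had its ovaries removed and received degarelix, which blocks the pituitary receptor for gonadotropin-releasing hormone and so lowers the rat's own FSH and luteinizing hormone, so neither group shows fat of an intact rat. All began at 10 weeks of age with 6 weeks of western diet before surgery, were held to their earlier weight by limited food for 12 days, ate freely for 7 days, fasted for 4 h and were killed at 19 weeks. The study asked how FSH acts on fat once the ovaries are gone.

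Libraries held 13163021 to 19837706 counts in the degarelix plus FSH group (n = 5) and 16452117 to 23694602 counts in the degarelix-only group (n = 6). Expression is given as CPM, each gene's counts scaled to a common library size after TMM adjustment. The tissue label matched its markers, with the adipocyte hormone gene Adipoq at 10237 to 14570 CPM with FSH and 9733 to 11887 CPM without. Of the kidney and adrenal markers (4 of 5 matched), Umod and Slc34a1 were at 0 counts in every library. From the same list, Cyp11a1 had 35.5 to 43.7 CPM with FSH and 33.7 to 41.2 CPM without. Star had 10.3 to 22.1 CPM with FSH and 15.9 to 31.4 CPM without. FSH replicate 3 stood apart. The nerve and glia markers (5 of 5 matched) summed to 12644.5 CPM in it. Their whole ranges were 3123 to 12644.5 CPM with FSH and 3886 to 5313 CPM without. S100b made up most of the sums of the other libraries, at 3005 to 4657 CPM with FSH and 3810 to 5158 CPM without. Mesothelial markers (5 of 5 matched) were also highest in it, at 14.0 CPM, against 0.916 to 7.39 CPM without FSH. Brown adipocyte markers (4 of 5 matched) summed to 137 CPM in it, the highest FSH value, and to 93.9 to 182 CPM without FSH. Of these, Ucp1 and Cox8b had their highest FSH values, 7.42 and 7.87 CPM, in FSH replicate 3, and their lowest FSH values were 0 CPM. Without FSH they reached 0.124 and 0.248 CPM. The high values therefore belong to that library and not to the FSH group as a whole.

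With FSH, Slc16a1 fell, and it was the only 1 of the 10 genes past an adjusted p of 0.05 in edgeR's quasi-likelihood test, which was adjusted over all 12846 genes tested. In that test 2.27% of all genes passed, 1.07% as lower and 1.21% as higher. Lower calls were 46.9% of all calls, and 32.6% with library totals as the only scaling. Of the 10 genes, 7 had a log2 change below 0 and 3 above. Their median log2 change was -0.19, against 0.0081 over all genes tested. At an unadjusted p under 0.05, 5 of the 10 were lower (Hk2, Gpi, Pfkl, Pkm and Slc16a1) and 0 were higher, where 22.6% of all genes reached that level in either direction and 10.8% as lower. The values per rat show that these 5 genes shared lower means with FSH, while the other 5 had log2 changes between -0.12 for Ldha and 0.16 for Pfkm.

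**Figure D1:**
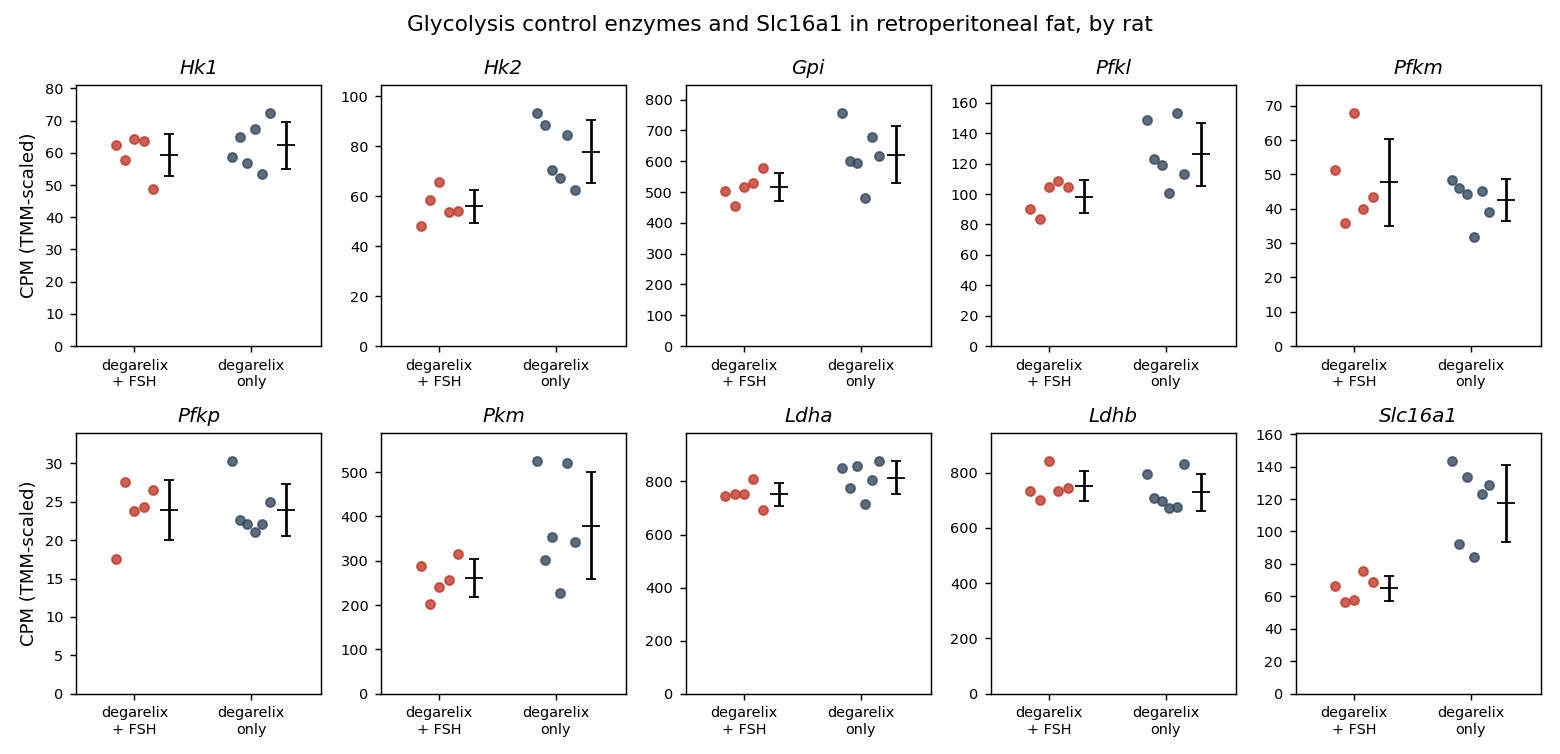
Each point is 1 rat, with CPM on the vertical axis from 0. Bars give the mean and SD of the 5 degarelix plus FSH rats (left in each panel) and the 6 degarelix-only rats (right). The groups are fully apart for Slc16a1, with 75.4 CPM as the highest FSH value and 84.0 CPM as the lowest degarelix-only value, and they overlap for the other 9 genes.

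Slc16a1 (ENSRNOG00000019996) encodes MCT1, the proton-linked carrier of lactate, pyruvate and ketone bodies across the plasma membrane. It had 66.1, 56.7, 57.7, 75.4 and 68.6 CPM in FSH replicates 1 to 5. In the degarelix-only rats it had 84.0 CPM at the lowest, 126 CPM at the median and 144 CPM at the highest. Every FSH rat lay below every degarelix-only rat, a separation in this direction that 1.8% of all genes tested showed. The mean was 64.9 ± 7.85 CPM with FSH and 117 ± 23.8 CPM without (SD, n = 5 and n = 6), a log2 change of -0.85 ± 0.14 (SE; 95% interval -1.16 to -0.55; adjusted p = 0.0193 in edgeR's quasi-likelihood test), or 44.7% less. It ranked 38th by p among the 12846 genes. In this bulk tissue, fewer cells that express a gene and less of its RNA per cell cannot be told apart. The adipocyte marker list summed to 37678 to 48303 CPM with FSH and 36235 to 45862 CPM without, with 0 of 8 members past the threshold and single log2 changes from -0.62 for Lep (adjusted p = 0.0790, edgeR) to 0.30 for Fabp4. Endothelial markers (7 of 8 matched) summed to 1526 to 2492 CPM with FSH and 1345 to 1793 CPM without. All 7 had a log2 change above 0 (median 0.32), and 1, the angiopoietin receptor Tek, rose (0.44 ± 0.10, adjusted p = 0.0431). Smooth muscle and pericyte markers (6 of 6 matched) summed to 779 to 1048 CPM with FSH and 623 to 891 CPM without, with 6 of 6 log2 changes above 0 (median 0.22) and 0 past the threshold. The part of these cells in the lower Slc16a1 was not tested.

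The call rests on few rats. It stood with any 1 of 9 libraries left out, and ended without FSH replicate 1 (adjusted p = 0.0526) or FSH replicate 2 (adjusted p = 0.0622) in edgeR's test. Without FSH replicate 3 the adjusted p was 0.0486. With FSH replicates 1 and 2 left out singly, 0.362% and 0.231% of all genes were called. The log2 change itself stayed between -0.93 and -0.79 whichever library was left out.

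The 250 bases before the annotated start of Slc16a1 are shown because it is the gene that changed, with those of Ldha for comparison, since they are the only windows among the 10 genes that hold the E-box CACGTG, the element bound by Myc, Mlxipl and related factors. Both come from RefSeq (build GRCr8, another build than the rn6 of the counts). Each reads 5′ to 3′ along its gene's strand, and capitals mark CACGTG and GGGCGG on either strand. The Slc16a1 window is chr2:194812410-194812659, plus strand, and the Ldha window is chr1:106507842-106508091, plus strand.
Slc16a1: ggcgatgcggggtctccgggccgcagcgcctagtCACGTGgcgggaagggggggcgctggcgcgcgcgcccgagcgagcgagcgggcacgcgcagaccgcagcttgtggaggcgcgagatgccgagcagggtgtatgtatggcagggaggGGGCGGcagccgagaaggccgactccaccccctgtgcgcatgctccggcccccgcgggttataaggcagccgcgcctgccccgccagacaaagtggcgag
Ldha: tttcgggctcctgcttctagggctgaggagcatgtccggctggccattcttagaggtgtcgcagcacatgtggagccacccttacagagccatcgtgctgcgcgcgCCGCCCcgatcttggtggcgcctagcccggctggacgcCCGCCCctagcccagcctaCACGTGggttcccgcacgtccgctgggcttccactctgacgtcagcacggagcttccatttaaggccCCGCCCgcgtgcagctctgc
The E-box begins 216 bases before the start of Slc16a1 and 87 bases before that of Ldha. Of all 33469 windows of the same length, 5.59% hold one.

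All 10 genes were matched to that promoter table by symbol, with 11 windows because Hk1 has 2. Besides CACGTG, both strands were searched for ACGTG (4 of the 11 windows, against 16.6% of all windows), GCGTG (5, against 25.9%), the GC box GGGCGG (7, against 30.5%), the cAMP response element TGACGTCA (1, in Ldha, against 1.59%) and its part TGACG (2, against 18.2%). Every CACGTG also holds ACGTG, and every TGACGTCA also holds TGACG. The 11 windows were 47.6% to 74.0% G or C. A match describes letters and does not show a bound site.

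The other carriers and partners of lactate gave no call. Bsg, the chaperone that brings MCT1 to the membrane, averaged 459 ± 30.0 CPM with FSH and 465 ± 26.7 CPM without (SD, n = 5 and n = 6), and its log2 change of -0.02 had a 95% interval of -0.17 to 0.12. Slc16a3, the lactate exporter of strongly glycolytic cells, was near 1 CPM, at 1.25 ± 0.490 CPM with FSH and 1.38 ± 0.387 CPM without, and its interval of -0.77 to 0.51 allows a change in either direction. The log2 ratio of Slc16a1 to Slc16a3 was 0.66 lower with FSH, and the groups overlapped (p = 0.0801, two-sided exact permutation test over all splits of the rats; adjusted p = 0.10 over the 5 ratios tested). The lactate receptor gene Hcar1 had 20.8, 32.6, 47.0, 76.3 and 33.8 CPM in FSH replicates 1 to 5. Its mean was 42.1 ± 21.3 CPM with FSH and 27.0 ± 12.6 CPM without, a log2 change of 0.63 ± 0.37 that did not pass (adjusted p = 0.336, edgeR).

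Hexokinase commits glucose to the cell by phosphorylating it. Hk2 (ENSRNOG00000006116) is the form that prevails in insulin-responsive tissue. It had 48.0, 58.3, 65.5, 53.7 and 54.0 CPM in FSH replicates 1 to 5, and 62.5 CPM at the lowest, 77.4 CPM at the median and 93.2 CPM at the highest in the degarelix-only rats. Only FSH replicate 3 reached into the degarelix-only range. The mean was 55.9 ± 6.51 CPM with FSH and 77.7 ± 12.6 CPM without (SD, n = 5 and n = 6), a log2 change of -0.48 ± 0.12 that just missed the threshold (adjusted p = 0.0530, edgeR). It passed in edgeR without degarelix-only replicate 4 (adjusted p = 0.0373, where 4.16% of all genes passed).

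Hk2 also passed under DESeq2 (adjusted p = 0.0046, with 8.78% of all genes called) and limma-voom with sample weights (adjusted p = 0.0279, with 4.94% called). With the shared replicate number as a block, 0.109% of all genes and none of the 10 passed in edgeR. At an adjusted p of 0.10 in edgeR, 7.49% of all genes passed, and Hk2 and Slc16a1 were the 2 of the 10 that did.

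Hk1 (ENSRNOG00000046891), the broadly expressed form, had 62.4, 57.7, 64.3, 63.6 and 48.7 CPM in FSH replicates 1 to 5, and 53.4 CPM, 61.7 CPM and 72.4 CPM as the lowest, median and highest degarelix-only values. The groups overlapped, and the log2 change of -0.07 had a 95% interval of -0.28 to 0.13. The log2 ratio of Hk2 to Hk1 averaged -0.09 ± 0.22 with FSH and 0.31 ± 0.36 without (SD, n = 5 and n = 6), and this difference did not pass (p = 0.0649, exact permutation test; adjusted p = 0.10 over the 5 ratios).

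Gpi (ENSRNOG00000023150) interconverts glucose 6-phosphate and fructose 6-phosphate. It had 504, 453, 517, 528 and 578 CPM in FSH replicates 1 to 5, and 481 CPM, 609.8 CPM and 757 CPM as the lowest, median and highest degarelix-only values. Degarelix-only replicate 4 was its lowest library of that group and lay inside the FSH range. The log2 change was -0.27 ± 0.11 (95% interval -0.50 to -0.03; adjusted p = 0.174, edgeR).

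Phosphofructokinase carries out the committed step, and its subunits come from the liver-type gene Pfkl, the muscle-type gene Pfkm and the platelet-type gene Pfkp. Pfkl (ENSRNOG00000001214) had 90.1, 83.5, 105, 108 and 105 CPM in FSH replicates 1 to 5, and 100.5 CPM, 121 CPM and 153 CPM as the lowest, median and highest degarelix-only values. Only degarelix-only replicate 4 lay inside the FSH range. The log2 change was -0.36 ± 0.12 (adjusted p = 0.105, edgeR), and DESeq2 called it (adjusted p = 0.0421).

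Pfkm (ENSRNOG00000057988) had 51.4, 35.8, 67.9, 39.8 and 43.3 CPM in FSH replicates 1 to 5, and 31.8 CPM, 44.8 CPM and 48.3 CPM as the lowest, median and highest degarelix-only values. FSH replicate 3, the library with the raised nerve and glia markers, held the highest value. The log2 change was 0.16 ± 0.16 (adjusted p = 0.569, edgeR) with all rats and 0.0037 without FSH replicate 3. Skeletal muscle markers (4 of 6 matched) summed to 8.67 to 11.2 CPM with FSH and 7.38 to 13.7 CPM without, and the muscle creatine kinase Ckm was at 0.108 CPM or less in every library.

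Pfkp (ENSRNOG00000017163) had 17.6, 27.6, 23.7, 24.3 and 26.6 CPM in FSH replicates 1 to 5, and 21.1 CPM, 22.4 CPM and 30.3 CPM as the lowest, median and highest degarelix-only values. The groups covered much the same range. Its log2 change of 0.0039 had a 95% interval of -0.26 to 0.27, and its sign turned under RLE scaling, under DESeq2 and with 7 of the 11 libraries left out singly.

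The make-up of the phosphofructokinase counts differed between the groups. Pfkl held 56.6%, 56.9%, 53.4%, 62.8% and 60.0% of the summed counts of the 3 genes in FSH replicates 1 to 5, against 63.8% to 69.5% in the degarelix-only rats. The log2 ratio of Pfkl to Pfkm averaged 1.07 ± 0.34 with FSH and 1.57 ± 0.14 without (SD, n = 5 and n = 6), a difference of -0.49 (p = 0.00649, two-sided exact permutation test over all splits of the rats, whose smallest possible p is 0.00216; adjusted p = 0.0325 over the 5 ratios). In this ratio the groups overlapped, with FSH replicate 4 at 1.44 and degarelix-only replicates 2 and 3 at 1.42 each. With 1 library left out, the difference in this ratio passed only without FSH replicate 4. Without FSH replicate 3 it was -0.38 (adjusted p = 0.0714, exact permutation test). The ratio of Pfkp to Pfkm did not differ beyond its spread (difference -0.14, p = 0.554, exact permutation test). Shares of counts also depend on transcript length, so they do not rank the subunits.

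**Figure D2:**
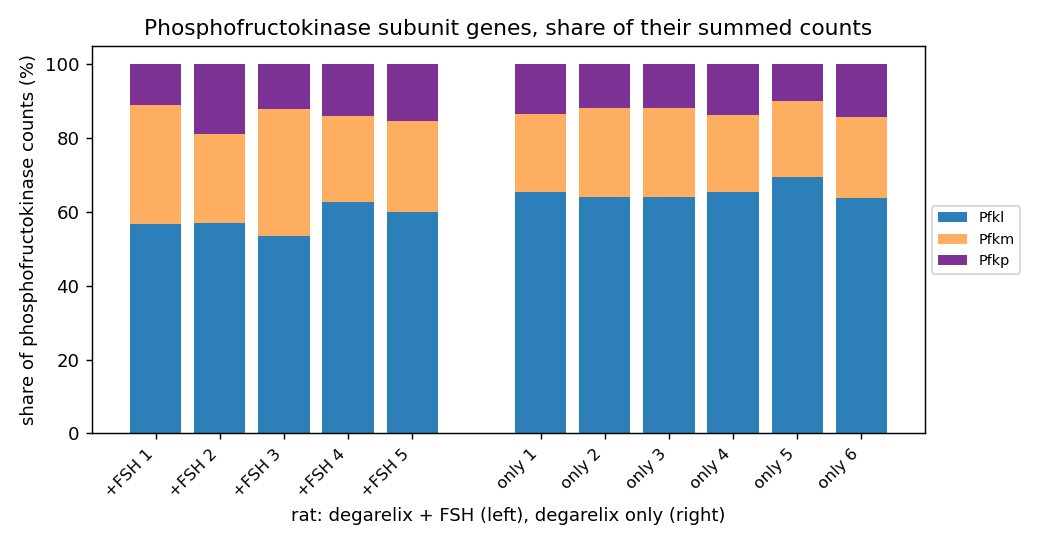
Each bar is 1 rat, divided by the share in % of the summed counts of Pfkl, Pfkm and Pfkp, with the degarelix plus FSH rats left and the degarelix-only rats right. The Pfkl share lies between 53.4% and 62.8% with FSH and between 63.8% and 69.5% without.

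The metabolite that switches phosphofructokinase on, fructose 2,6-bisphosphate, is made and broken by the Pfkfb enzymes. Of 5 tested genes of this list, which also holds the fructose bisphosphatases, 0 passed the threshold and the median log2 change was -0.07. The smallest p values belonged to Tigar, a phosphatase of that metabolite (log2 change -0.18 ± 0.07, adjusted p = 0.163 in edgeR), and Pfkfb2, the isoform known from heart (0.36 ± 0.16, adjusted p = 0.201). Fbp1 and Fbp2 were too low to test.

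Pkm (ENSRNOG00000011329) encodes the pyruvate kinase of most tissues, as a pair of splice forms that gene counts do not separate. It had 288, 203, 241, 258 and 315 CPM in FSH replicates 1 to 5, and 227 CPM, 348 CPM and 526 CPM as the lowest, median and highest degarelix-only values. Degarelix-only replicates 1 and 5 were well above the rest of their group, at 526 and 521 CPM. The mean was 261 ± 43.0 CPM with FSH and 379 ± 120.4 CPM without (SD, n = 5 and n = 6), a log2 change of -0.54 ± 0.21 (adjusted p = 0.161, edgeR). The other pyruvate kinase gene, Pklr, was at 0.188 ± 0.121 CPM with FSH and 0.230 ± 0.132 CPM without and was too low to test.

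Lactate dehydrogenase is a tetramer of Ldha and Ldhb subunits, and Ldha-rich forms favour making lactate from pyruvate. Ldha (ENSRNOG00000013009) had 747, 753, 752, 811 and 693 CPM in FSH replicates 1 to 5, and 716 CPM, 828 CPM and 878 CPM as the lowest, median and highest degarelix-only values. Its log2 change was -0.12 ± 0.07 (95% interval -0.28 to 0.04; adjusted p = 0.361, edgeR). Ldhb (ENSRNOG00000013000) had 735, 702, 843, 734 and 746 CPM in FSH replicates 1 to 5, and 670.0 CPM, 702 CPM and 831 CPM as the lowest, median and highest degarelix-only values. Its log2 change was 0.04 ± 0.08 (95% interval -0.13 to 0.22), and -0.000385 without FSH replicate 3. The groups overlapped for both genes.

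The log2 ratio of Ldha to Ldhb averaged -0.0007 ± 0.13 with FSH and 0.16 ± 0.09 without (SD, n = 5 and n = 6). The difference of -0.16 did not pass (p = 0.0541, exact permutation test; adjusted p = 0.10 over the 5 ratios), and it passed without FSH replicate 4 (difference -0.20, adjusted p = 0.0317, exact permutation test). Processed pseudogenes of Ldha and of several enzymes below are known in rodents, so their counts are uncertain where reads could be split.

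**Figure D3:**
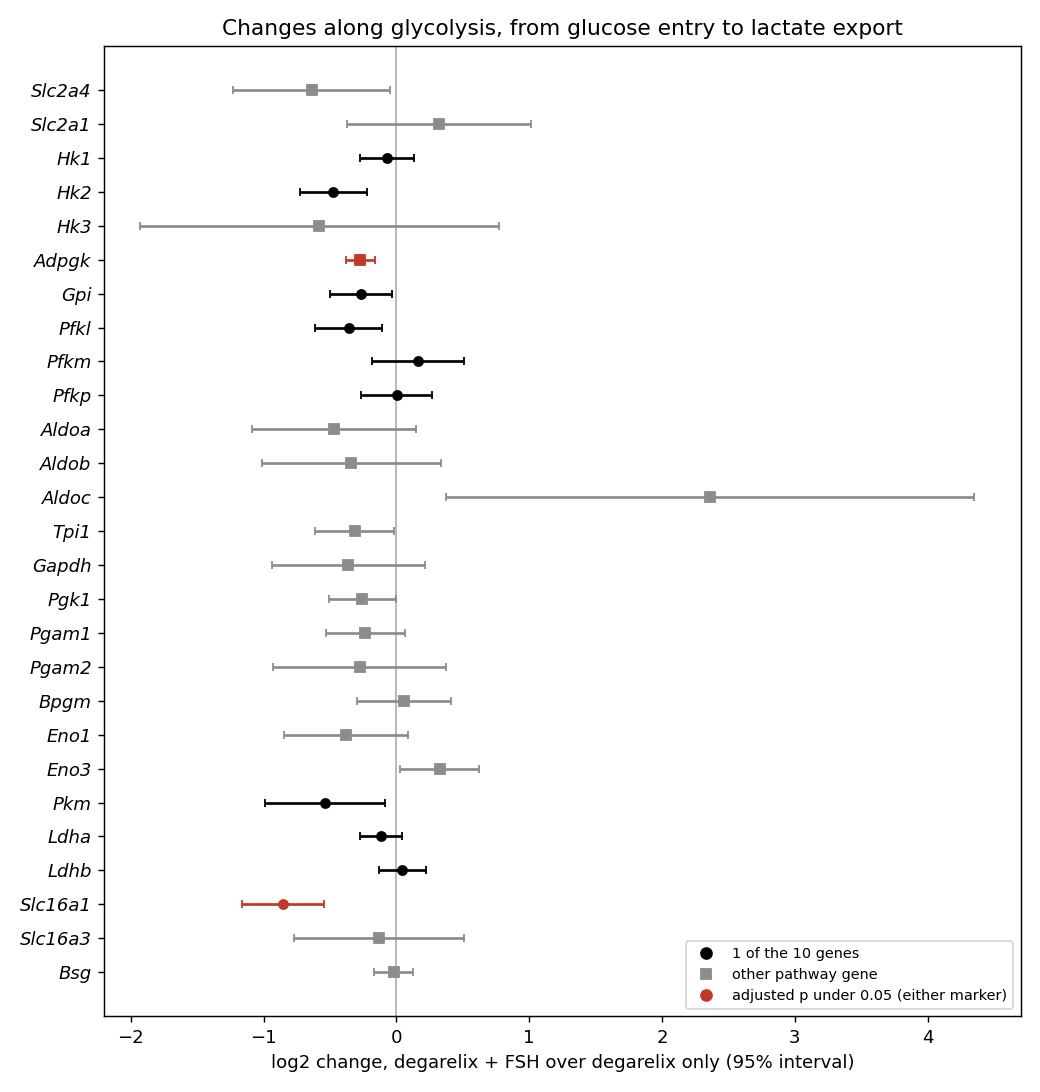
Points give the log2 change of degarelix plus FSH over degarelix only, with 95% intervals from edgeR's fit of 5 and 6 rats, in the order of the pathway from glucose entry (top) to lactate export (bottom). Circles are the 10 genes and squares other pathway genes, with all 13 other glycolysis enzymes tested. Aldoc at 2.36 has the widest interval. Slc16a1 at -0.85 and Adpgk at -0.27 are past the threshold (red), and the intervals of Hk2, Gpi, Pfkl, Pkm, Slc2a4, Tpi1 and Pgk1 also lie below 0, and those of Aldoc and Eno3 above 0, without an adjusted p past it.

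Across 7 lists of other genes of glucose and lactate handling, 65 of 77 listed genes were tested, 1 passed as lower and 0 as higher. That share of 1.54% is near the 2.27% of all genes. The gene that passed was Adpgk, the ADP-dependent glucokinase. It had 73.2, 67.4, 69.2, 76.8 and 71.9 CPM in FSH replicates 1 to 5, and 83.2 to 89.3 CPM in the degarelix-only rats. All FSH values lay below these. It fell by a log2 change of -0.27 ± 0.05 (adjusted p = 0.0282, edgeR). Its call ended with any 1 of 7 libraries left out (degarelix-only replicates 1, 5 and 6 and all FSH rats but replicate 4), with an adjusted p of up to 0.0741 in edgeR.

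Of the 13 other glycolysis enzymes tested, 10 had a log2 change below 0 and 3 above, with a median of -0.28, and spreads were wide. Gapdh, the dehydrogenase often taken as a reference gene, had 1096, 690.4, 973, 794 and 1258 CPM in FSH replicates 1 to 5. Degarelix-only values ran from 638 to 1877 CPM. The mean was 962 ± 228 CPM with FSH and 1238 ± 481 CPM without (SD, n = 5 and n = 6), and the log2 change of -0.36 ± 0.26 did not pass (adjusted p = 0.434, edgeR). The other 8 with a change below 0 did not pass either, among them the aldolase Aldoa (log2 change -0.47 ± 0.28), Tpi1 (-0.31 ± 0.14), Pgk1 (-0.26 ± 0.12), Pgam1 (-0.23 ± 0.14) and the enolase Eno1 (-0.38 ± 0.21). The 3 above 0 were Aldoc, Eno3 and Bpgm, and they did not pass. The aldolase gene Aldoc had 1.86, 1.29, 34.8, 1.59 and 1.07 CPM in FSH replicates 1 to 5 and 1.09 to 1.94 CPM in the degarelix-only rats. Its log2 change was 2.36 ± 0.91 (adjusted p = 0.161, edgeR) with all rats and -0.10 without FSH replicate 3, the library with the raised nerve and glia markers. The enolase gene Eno3 averaged 14.3 ± 2.31 CPM with FSH and 11.4 ± 1.89 CPM without (SD, n = 5 and n = 6), a log2 change of 0.32 ± 0.14 (adjusted p = 0.188, edgeR). Bpgm, which makes 2,3-bisphosphoglycerate, had 0.06 ± 0.16. These enzymes other than Gapdh and Adpgk were named after their values were seen.

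Glucose transporters and Txnip gave 0 calls among 9 tested genes, with a median log2 change of 0.07. The insulin-responsive transporter Slc2a4 had 282, 250, 252, 263 and 341 CPM in FSH replicates 1 to 5, and 206 to 669.6 CPM in the degarelix-only rats. The mean was 277 ± 37.9 CPM with FSH and 432 ± 186 CPM without (SD, n = 5 and n = 6). Its log2 change was -0.64 ± 0.27 (adjusted p = 0.191, edgeR). Txnip, the arrestin-like brake on glucose uptake, averaged 2931 ± 434 CPM with FSH and 1962 ± 634 CPM without, a log2 change of 0.58 ± 0.21 (adjusted p = 0.135, edgeR). The fructose transporter Slc2a5 had a log2 change of -1.94 ± 0.70 (adjusted p = 0.140, edgeR) at 1.06 ± 0.330 CPM with FSH and 4.15 ± 3.86 CPM without. The widely expressed transporter Slc2a1 had 9.30 to 35.6 CPM with FSH, highest in FSH replicate 3, and its log2 change of 0.32 ± 0.32 did not pass.

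The pyruvate dehydrogenase complex, its kinases and phosphatases and pyruvate carboxylase gave 0 calls among 12 tested genes, 10 of them with a log2 change below 0 (median -0.26). Dlat, the acetyltransferase core of pyruvate dehydrogenase, averaged 123 ± 17.4 CPM with FSH and 182 ± 59.2 CPM without (log2 change -0.56 ± 0.21, adjusted p = 0.150, edgeR). Dld, its dihydrolipoamide dehydrogenase, had a log2 change of -0.26 ± 0.12 (adjusted p = 0.217, edgeR). Pdk4, a kinase that switches the complex off, had 0.43 ± 0.44 (adjusted p = 0.582).

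Among 6 tested regulators, 0 passed. Mlx, the partner of Mlxipl, had a log2 change of -0.46 ± 0.15 (adjusted p = 0.104, edgeR). Mlxipl, the glucose-sensing factor ChREBP, had -0.69 ± 0.36 (adjusted p = 0.282), and the hypoxia factor Epas1 had 0.19 ± 0.08 (adjusted p = 0.182). Of 10 tested genes of glycogen and the side branches, 0 passed and 9 had a log2 change below 0. Gpd1, which makes glycerol phosphate from the glycolytic intermediate dihydroxyacetone phosphate, had a log2 change of -0.62 ± 0.17 (adjusted p = 0.0686, edgeR), with all FSH rats below all degarelix-only rats. Pgm1, the phosphoglucomutase that links glycogen to glycolysis, had -0.32 ± 0.10 (adjusted p = 0.106). In the list of lactate and pyruvate carriers, 0 of 10 tested genes passed, and the orphan carrier Slc16a11 had 1.36 ± 0.48 (adjusted p = 0.134) with its highest value in FSH replicate 3.

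Rats of the same group differed in step. Degarelix-only replicate 4 was the lowest of its group of 6 in 8 of the 10 genes, against 22.0% of all genes tested, and degarelix-only replicate 1 was the highest in 6, against 19.3%. Within the FSH group, replicate 2 was the lowest of 5 in 6 of the 10 genes, against 18.8% of all genes. Among the 65 other pathway genes, degarelix-only replicate 4 was the lowest of its group in 55.4%, degarelix-only replicate 1 the highest in 43.1% and FSH replicate 2 the lowest in 40.0%. Degarelix-only replicate 4 held 206 CPM of Slc2a4 and 0.41 CPM of Slc2a5, its group's lowest values, and 49.97 CPM of Pdk4, its group's highest. Degarelix-only replicate 4 and FSH replicate 2 also held their groups' highest immune marker sums. Macrophage markers (7 of 7 matched) summed to 440 and 382 CPM in them, against group medians of 235 and 270 CPM. T and NK cell markers (6 of 6 matched) summed to 58.8 and 60.1 CPM, against medians of 46.7 and 39.8 CPM. The same libraries held their groups' lowest smooth muscle and pericyte marker sums, at 623 and 779 CPM, against medians of 717 and 831 CPM. The part of these cells in the shared variation was not tested.

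**Figure D4:**
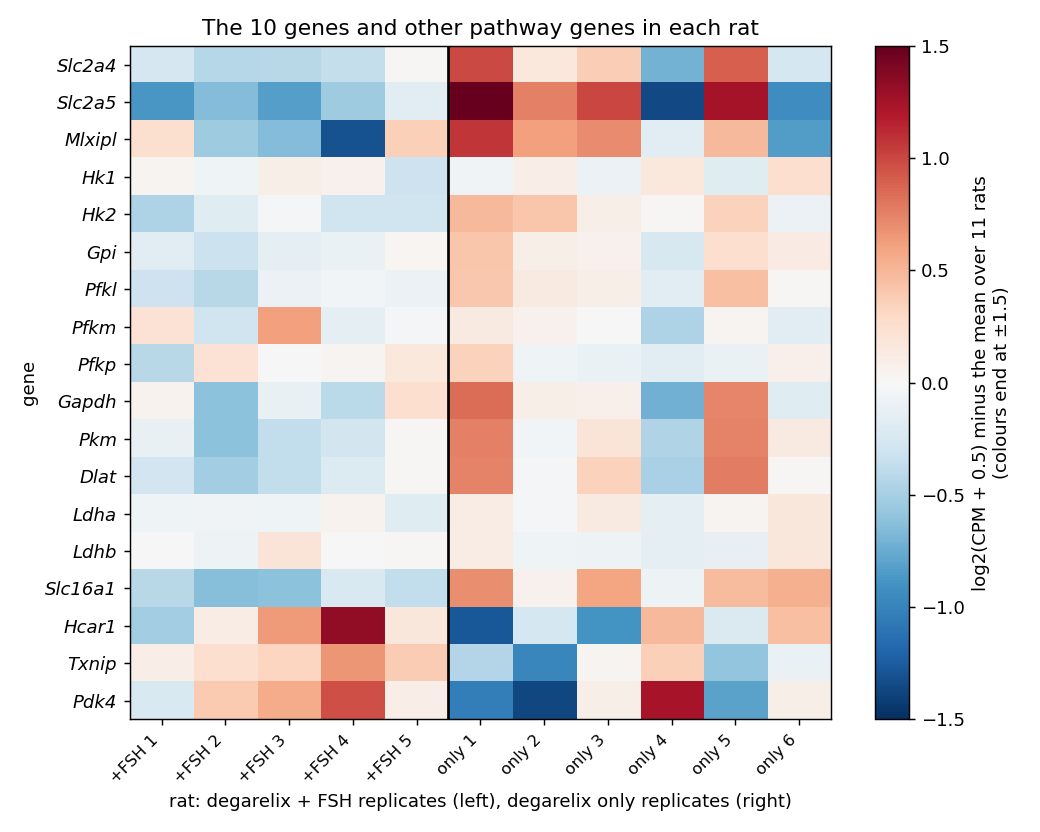
Colour gives log2(CPM + 0.5) minus the gene's mean over the 11 rats, red for higher and blue for lower, with the 5 degarelix plus FSH rats left of the line and the 6 degarelix-only rats right of it. Degarelix-only replicates 1 and 5 are red in most rows from Slc2a4 to Dlat, where replicate 4 is mostly blue, and Slc16a1 is blue in all 5 FSH rats.

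Once each group's mean was removed, Gpi, Pfkl and Pkm varied together among the 11 rats. Of 45 pairs of the 10 genes, 4 passed an adjusted p of 0.05 by Pearson's r and 2 of these by Spearman's rho as well. The permutations shuffled the centred values over all 11 rats, across both groups, and did not count the removal of the group means. The permutation p values may therefore be somewhat too small. Pairs of genes outside the 10 were not tested, so no share over all genes stands beside these counts. Whether such variation is particular to these genes was not tested. The pair Gpi and Pkm had r = 0.93 (permutation p = 0.00011, adjusted p = 0.0047) and rho = 0.85 (permutation p = 0.00123, adjusted p = 0.0340), and r = 0.83 without the 2 rats farthest out in Gpi. The pair Gpi and Pfkl had r = 0.88 (permutation p = 0.00021, adjusted p = 0.0047) and rho = 0.85 (permutation p = 0.00151, adjusted p = 0.0340), and r = 0.81 without those 2 rats. The rats left out were degarelix-only replicates 1 and 4.

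The pair Pfkl and Pkm passed by r alone (r = 0.84, permutation p = 0.00123, adjusted p = 0.018; rho = 0.75, permutation p = 0.0108, adjusted p = 0.122). Without the 2 rats farthest out in Pfkl, degarelix-only replicates 4 and 5, r was 0.67. The pair Pkm and Slc16a1 did so too (r = 0.78, permutation p = 0.00425, adjusted p = 0.0478; rho = 0.75, permutation p = 0.0109, adjusted p = 0.122). Its adjusted p by r lies close to the threshold, so the limit of the permutations given above bears most on this call. Without the 2 rats farthest out in Pkm, degarelix-only replicates 1 and 4, r was 0.53. Hk1 went the other way, with r = -0.59 against Pkm (permutation p = 0.0572, adjusted p = 0.301; rho = -0.55, permutation p = 0.0821, adjusted p = 0.354), which did not pass. Over the 45 pairs the median r was 0.36 and 35 were above 0.

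**Figure D5:**
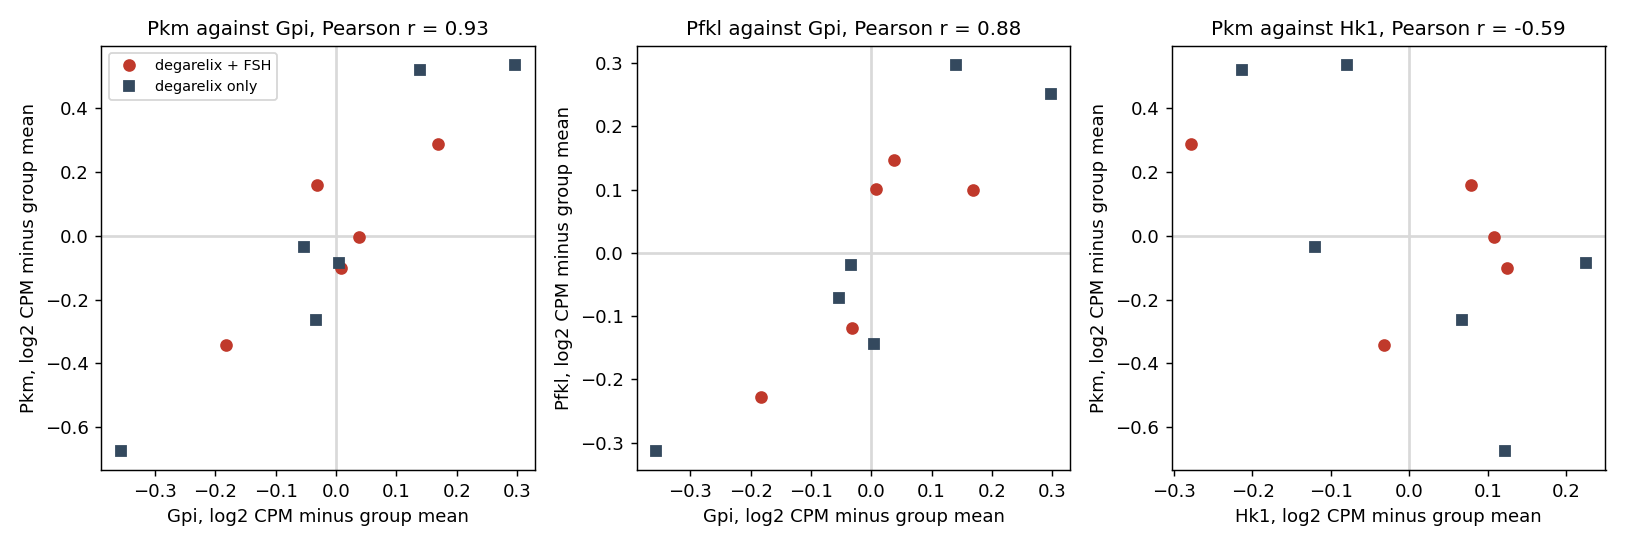
Each point is 1 rat, and both axes give log2 CPM minus the mean of the rat's own group. Circles are the 5 degarelix plus FSH rats and squares the 6 degarelix-only rats. Pkm and Pfkl climb with Gpi (r = 0.93 and r = 0.88), and Pkm runs against Hk1 (r = -0.59, which did not pass).

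The windows before Gpi, Pfkl and Pkm are shown because these 3 genes varied together. They come from the same RefSeq table (GRCr8), 5′ to 3′ along the gene's strand, with GGGCGG on either strand in capitals. They are chr1:95993262-95993511, minus strand for Gpi, chr20:10663715-10663964, plus strand for Pfkl and chr8:68953385-68953634, plus strand for Pkm.
Gpi: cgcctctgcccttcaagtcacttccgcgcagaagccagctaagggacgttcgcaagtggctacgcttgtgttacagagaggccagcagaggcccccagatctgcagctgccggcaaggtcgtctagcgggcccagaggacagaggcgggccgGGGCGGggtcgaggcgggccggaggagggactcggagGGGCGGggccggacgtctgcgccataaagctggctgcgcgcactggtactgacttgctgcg
Pfkl: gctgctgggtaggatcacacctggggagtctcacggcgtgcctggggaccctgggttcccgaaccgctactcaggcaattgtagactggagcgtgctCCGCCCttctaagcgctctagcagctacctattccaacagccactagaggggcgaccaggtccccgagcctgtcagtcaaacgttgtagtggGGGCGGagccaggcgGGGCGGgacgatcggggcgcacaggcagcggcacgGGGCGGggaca
Pkm: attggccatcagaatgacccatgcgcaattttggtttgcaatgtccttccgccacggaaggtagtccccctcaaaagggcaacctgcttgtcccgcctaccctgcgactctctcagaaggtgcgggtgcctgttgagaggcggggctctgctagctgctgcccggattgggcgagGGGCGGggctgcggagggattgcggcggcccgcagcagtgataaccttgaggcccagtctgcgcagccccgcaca
GGGCGG occurs 2 times in the Gpi window, 4 times in that of Pfkl and 1 time in that of Pkm, and CACGTG in none of the 3. GGGCGG is not particular to these genes, as the windows of Pfkp, Ldha and Slc16a1 and 1 of the 2 Hk1 windows hold it too.

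The 5 genes whose group-centred log2 CPM followed that of Slc16a1 most closely over the 11 rats, among 8472 genes with a mean of at least 10 CPM, were Aspa (r = 0.92), Mtch2 (0.92), Mtx2 (0.91), Ostf1 (0.90) and Strbp (0.90). They were picked as the largest of 8472 correlations over 11 rats, a choice that by itself brings high values, and were not tested. Aspa splits N-acetylaspartate into aspartate and acetate, and Mtch2 and Mtx2 are proteins of the mitochondrial outer membrane. Between the groups none of the 5 passed the threshold, and their log2 changes lay between -0.31 for Mtch2 and -0.02 for Strbp (adjusted p from 0.0764 to 0.914, edgeR).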

How the data were processed

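RNA was sequenced from retroperitoneal fat of 11 rats, 1 library each, with a strand-marking kit and paired ends, per the labels' protocols. The authors deposited raw counts, whole numbers with 1 row per Ensembl gene and no normalization (from the values). The build rn6 and the tools STAR, DESeq2 and edgeR are named, per the submitters' processing notes. Which program counted, with which annotation and strand setting, is not given in the sources used here, so overlapping genes and near-identical copies may share counts.

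Groups came from the labels, and columns were matched by name. One row (Pcmt1) was left out because a cell holds a letter. Of 25275 rows, 17034 had a count and edgeR's filterByExpr kept 12846. A count of 0 allows up to 0.127 to 0.228 CPM (3 counts of a library's total, counting error only). No library repeated another (chi-square over degrees of freedom of at least 18.6 for every pair).

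The test was edgeR 4.0.16 in R 4.3.3 (TMM, robust quasi-likelihood F test, 9 residual degrees of freedom before moderation), two-sided, Benjamini-Hochberg over all genes tested, threshold 0.05. Ratios of log2 CPM (prior count 2) had an exact permutation test over every split of the rats, and pairs of genes by 100000 permutations. Alternatives were other scalings and filters, DESeq2 1.42.0, limma 3.58.1 (voom with and without sample weights), edgeR without robust estimation, an adjusted p of 0.10, the replicate number as a block, and each library left out. The edgeR and correlation steps were tested on simulated data.

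The genes and lists were chosen with earlier results of these data known. Other genes named were those past the threshold in each of 7 pathway lists or else the 2 of smallest p, 8 further genes and the 5 most like Slc16a1. Of 77 pathway symbols 76 were matched, 1 of them (Pcx, as Pc) by a synonym, and 67 of 72 marker symbols were. The settings for Adpgk, Aldoc, Eno3, Bpgm and for the count of pathway genes were added after seeing the data.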

Additional observations from a re-analysis of the deposited data

Results flagged for a closer look

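Of 94 sets of values (the 10 genes, the 5 ratios and the pathway genes named, with all glycolysis enzymes tested, in each group), 5 had a rat far from the others, where chance gives about 1 in 20, or 4.7. Slc2a1 was at 35.6 CPM in FSH replicate 3, against 9.30 to 13.1 CPM in the other FSH rats. Slc16a11 was at 34.5 CPM in the same rat, against 4.46 to 9.0 CPM in the other FSH rats. Aldoc was at 34.8 CPM in that rat too, and at 1.07 to 1.86 CPM in the other FSH rats. The nerve and glia markers of that library summed to 12644.5 CPM and its mesothelial markers to 14.0 CPM. The part of such cells in these values was not tested. Pgk1 was at 425 CPM in FSH replicate 5, where the remaining FSH rats had 331 to 358 CPM. Pdk4 was at 49.97 CPM in degarelix-only replicate 4, while the remaining 5 rats of its group had 7.77 to 22.2 CPM.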

How the results depend on the processing

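The number of genes called over the whole table was 292. It was 1128 with DESeq2, 635 with limma-voom and sample weights and 962 at an adjusted p of 0.10, and between 30 and 553 with 1 library left out. As shares of all genes tested, these were 2.27%, 8.78%, 4.94% and 7.49%, and 0.231% to 4.26% with 1 library left out. Beside these shares, the number called among the 10 genes was 1, against 3 with DESeq2 and 2 with sample weights. It was 2 at an adjusted p of 0.10, and 0 to 2 with 1 library left out. The cause was not tested. The log2 change of Pfkp was -0.0034 under RLE scaling and -0.0033 under DESeq2, and lay between -0.0512 and 0.0969 with 1 library left out, and that of Ldhb between -0.000385 and 0.0849. That of Aldoc lay between -0.0991 and 2.65 with 1 library left out. That of Bpgm was -0.0704 with sample weights and lay between -0.0723 and 0.157 with 1 library left out. No other gene of the 10 turned sign in any setting run. With 1 library left out, the difference in log2 ratio lay between -0.58 and -0.38 for Pfkl over Pfkm, between -0.20 and -0.12 for Ldha over Ldhb, and between -0.91 and -0.49 for Slc16a1 over Slc16a3, which passed without FSH replicate 4 (adjusted p = 0.0238, exact permutation test). With fewer rats these tests reach less small p-values. Of the 65 other pathway genes 1 was called (2.27% of all genes), against 6 with DESeq2 (8.78%) and 2 with sample weights (4.94%). The number was 0 with the replicate block (0.109% of all genes) and 0 to 5 with 1 library left out (0.231% to 4.26%). Pairs of genes past the threshold numbered 4, and 5 with library totals as the only scaling. Library totals alone moved the median log2 change of all genes to 0.077, and the median of the 10 genes was then -0.12. The share of lower calls among all calls was 46.9%, and 32.6% with library totals alone.

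Rats with the same replicate number did not vary together (correlations of their deviations -0.11 to 0.13), so no pairing by this number was seen. So few correlations cannot settle whether such rats shared a batch, which was not tested. With the replicate block, 14 genes and 0 of the 10 were called, and Slc16a1 had a log2 change of -0.81 (adjusted p = 0.0998, edgeR).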
